A study of Caenorhabditis elegans with 16 samples.

Results

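The genes *pals-22*, *pals-23*, *pals-24* and *pals-25* of *Caenorhabditis elegans* lie together near the left end of chromosome III and were described here as a group. They were picked by their gene identifiers (WBGene00016216, WBGene00016218, WBGene00016219 and WBGene00020540), and they are 4 of the 46904 genes counted in the series. The rule used no measured value, although earlier results of these data were known when it was set. RNA of whole L4 animals was sequenced in 16 libraries, 4 for each of 4 genotypes. These were *pals-22(jy3)* mutants, *pals-25(jy111)* mutants, double mutants with the genotype *pals-22(jy3) pals-25(jy9)* and N2 wild-type (WT) animals, each library made from a pool of many animals kept at 20 °C without infection. The *pals-22(jy3)* animals, which develop slowly, were collected after 48 h of growth, against 44 h for the other 3 genotypes, so the growth time cannot be told apart from the genotype in any comparison with *pals-22(jy3)* mutants. All 3 mutant genotypes carry single-base or few-base alleles rather than deletions, so that a count per gene does not check the genotype labels. The *jy3* allele is a G-to-A change in the splice acceptor before exon 4 of *pals-22*, and *jy9* is the missense change P38L in *pals-25*, which the study treats as a loss of function. The *jy111* allele is Q293*, a premature stop codon in the last exon of *pals-25*, which the study treats as a gain of function.

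The *pals* genes are a large nematode family whose proteins share a weakly conserved signature and mostly have no known biochemical activity. Many of them are switched on together in the intracellular pathogen response (IPR), a transcriptional programme that worms mount against microsporidia and the Orsay virus, which infect the intestine. A related programme, the oomycete recognition response (ORR), is seen mostly in the epidermis. PALS-22 is known as a repressor of both programmes and PALS-25 as an activator that is needed when PALS-22 is lost, while no role has been assigned here to PALS-23 or PALS-24.

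Ensembl's annotation of WBcel235 places all 4 genes on the forward strand. The first in the order of transcription is *pals-24*, from 120435 to 124690, with 10 exons and 301 codons. It is followed after 87 bases by *pals-23*, from 124778 to 127971, which has 7 exons in its longest coding transcript and 303 codons. A gap of 4446 bases separates this pair from *pals-22*, from 132418 to 134401, with 4 exons and 284 codons. The gene *pals-25* starts 92 bases beyond *pals-22* and spans 134494 to 137975, with 5 exons and 305 codons. The study describes *pals-22* and *pals-25* as an operon, that is, genes transcribed together and then separated into single messages. The annotation places the *jy3* acceptor at the end of the 47-base intron from 134117 to 134163, the *jy9* codon at 136134 to 136136 in exon 2, and the *jy111* codon at 137784 to 137786 in exon 5, with 13 residues encoded from that codon to the end. No exon of the 4 genes overlaps an exon of another gene, although C29F9.12 lies on the opposite strand inside an intron of *pals-24*.

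The *jy111* allele was made by CRISPR/Cas9 editing, and its reagents are shown because they give the bases by which the RNA of these animals differs from WT. Both lines are written 5′ to 3′ and lie at chrIII:137783-137805 of WBcel235 on the forward strand, placed by the annotated codon, with the differing bases and the PAM in capitals.
*pals-25* crRNA with PAM: cCaaaaagatcaTgtCagtcAGG
*jy111* repair template, the stretch that matches the crRNA: cTaaaaagatcaCgtAagtcAGG
With positions counted from 1 at the 5′ end of the crRNA, C2T turns the glutamine codon CAA into the stop codon TAA. The other differences, T13C and C16A, are at base 3 of codons 296 and 297 and are given by the study as synonymous. Of the 23 bases, 20 are the same in both, among them the PAM.

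The libraries held 14028579 to 34151410 counts assigned to genes. Levels are given as CPM (counts per 1000000 counts assigned to genes), scaled between libraries by the trimmed mean of M values (TMM). Each of the 4 genes was counted in every library, with the fewest counts for *pals-25*, which had 34 in WT replicate 1, or 2.45 CPM with a 95% Clopper-Pearson interval of 1.70 to 3.43 CPM that covers counting error only. All 4 passed the filter on low counts in all 6 pairs of genotypes. The replicates are labelled as biological, and what set them apart (culture, day or plate) is not given, so p-values measure the spread between these libraries. Replicate 4 of the double mutants stood apart from the other libraries in its adult-stage markers. Its summed level of the adult-stage markers *vit-2*, *vit-5*, *vit-6* and *col-19* was 42.4 CPM, against 410 to 837 CPM in the other double-mutant libraries, and the fold changes of *pals-23* and *pals-24* and the share differences that involve the double mutants are given with and without it. Other libraries stood apart in other sums. The epidermis markers summed to 766 CPM in WT replicate 1, against 384 to 429 CPM in the other WT libraries. In *pals-22(jy3)* replicate 1 they summed to 892 CPM, against 437 to 538 CPM in the other *pals-22(jy3)* libraries. No marker on the lists checked for intestine, epidermis, neurons, muscle, pharynx, germline, sperm or stage was at 0 in any genotype, and 3 of the 4 markers listed for L4 and molt were found in the table.

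The repressor gene *pals-22* was highest in the animals that carry its own splice allele. It had 17.4, 23.5, 19.9 and 22.8 CPM in *pals-22(jy3)* replicates 1 to 4, a mean of 20.9 ± 2.81 CPM (SD, n = 4). The *pals-25(jy111)* libraries had 8.58, 9.57, 10.1 and 9.88 CPM, a mean of 9.53 ± 0.675 CPM. In the double mutants it had 5.78, 5.74, 6.63 and 7.31 CPM, a mean of 6.37 ± 0.753 CPM, and in WT animals 3.90, 5.15, 4.35 and 3.602 CPM, a mean of 4.25 ± 0.676 CPM. The 4 genotypes thus formed 4 ranges that did not overlap, with *pals-22(jy3)* at the top and WT at the bottom.

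The activator gene *pals-25* followed the same order at a lower level. It had 8.59, 8.74, 8.48 and 11.1 CPM in *pals-22(jy3)* mutants (9.23 ± 1.25 CPM, SD, n = 4), and 5.48, 6.57, 5.62 and 7.29 CPM in *pals-25(jy111)* mutants (6.24 ± 0.852 CPM). It had 2.93, 3.37, 2.70 and 3.77 CPM in the double mutants (3.19 ± 0.475 CPM), and 2.45, 2.79, 2.78 and 2.39 CPM in WT animals (2.60 ± 0.212 CPM). Here the *pals-25(jy111)* and the *pals-22(jy3)* libraries each stood clear of all other libraries, whereas the double mutants and WT overlapped.

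The upstream neighbour *pals-23* was highest on average in *pals-22(jy3)* mutants, with 19.8, 32.3, 23.4 and 24.96 CPM (25.1 ± 5.27 CPM, SD, n = 4). It had 7.27, 10.9, 7.75 and 12.7 CPM in *pals-25(jy111)* mutants (9.65 ± 2.58 CPM) and 5.86, 16.1, 9.47 and 21.4 CPM in the double mutants (13.2 ± 6.91 CPM). WT animals had 5.55, 9.66, 6.45 and 9.72 CPM (7.84 ± 2.16 CPM). The *pals-25(jy111)* and WT libraries overlapped, and the double mutants spread from within the WT range to a value above the lowest *pals-22(jy3)* library.

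For *pals-24* the *pals-22(jy3)* libraries had 17.9, 41.4, 27.4 and 26.3 CPM (28.2 ± 9.77 CPM, SD, n = 4), the widest range of any of the 4 genes in any genotype on the CPM scale. The *pals-25(jy111)* libraries had 8.86, 12.5, 9.53 and 9.76 CPM (10.2 ± 1.61 CPM), the double mutants 5.16, 11.5, 6.84 and 18.96 CPM (10.6 ± 6.18 CPM) and WT animals 7.93, 9.96, 7.57 and 9.85 CPM (8.83 ± 1.25 CPM). As for *pals-23*, the *pals-25(jy111)* and WT libraries overlapped and the double mutants were scattered, with replicates 2 and 4 above the WT range and replicates 1 and 3 below it.

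**Figure D1:**
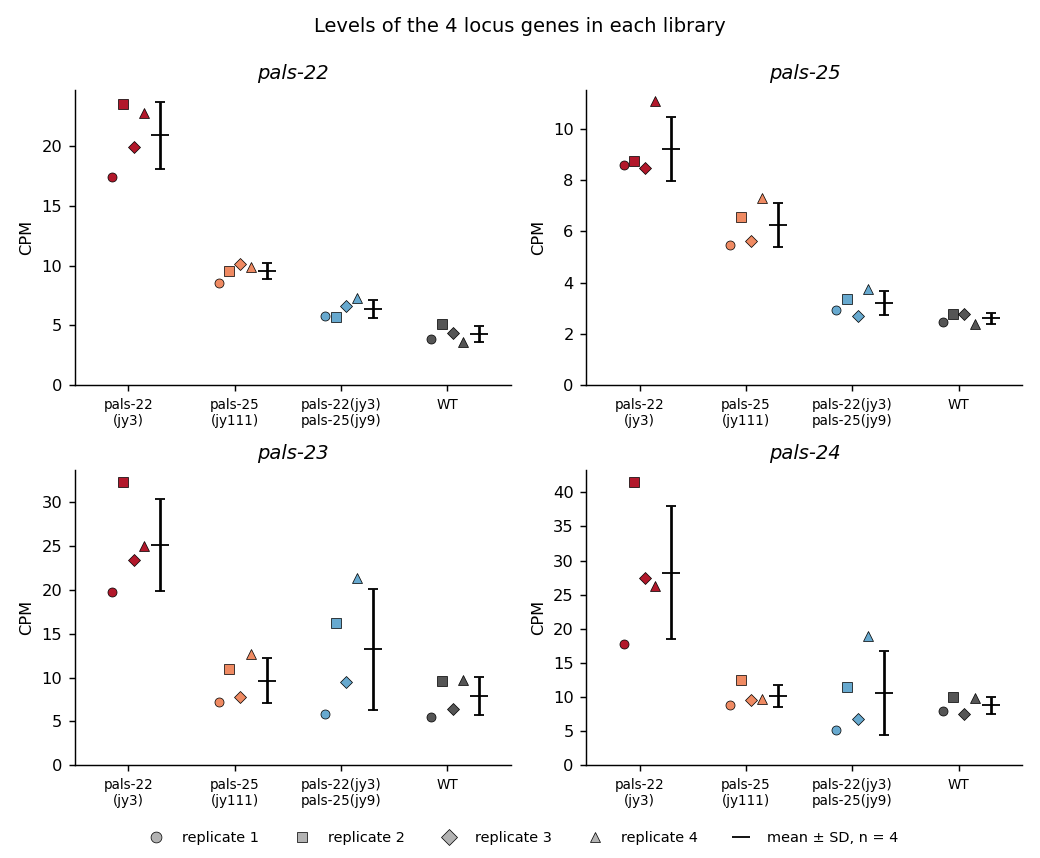
CPM of each of the 4 locus genes (vertical axis, linear from 0) in the 16 libraries, grouped by genotype, with 1 marker shape per replicate number and the mean ± SD of 4 libraries beside each group. The mean of *pals-22(jy3)* mutants is highest for every gene, although double-mutant replicate 4 lies above their lowest library for *pals-23* and *pals-24*, the *pals-25(jy111)* libraries stand above WT for *pals-22* and *pals-25* alone, and the double mutants range from 5.16 to 18.96 CPM for *pals-24*.

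Levels of different genes were set against each other per length, as CPM per kilobase of the gene length in the deposited table. In WT animals the order was *pals-24* (9.75 ± 1.38), *pals-23* (6.75 ± 1.86), *pals-22* (4.76 ± 0.757) and *pals-25* (2.42 ± 0.197 CPM per kb, SD, n = 4). This order held within each of the 4 WT libraries, but only *pals-25* was separated from the next gene by ranges that did not overlap. Among *pals-22(jy3)* levels *pals-24* again led (31.2 ± 10.8 CPM per kb), then came *pals-22* (23.4 ± 3.15) and *pals-23* (21.6 ± 4.53), whose ranges overlapped, and *pals-25* was last with 8.60 ± 1.16 CPM per kb. In *pals-25(jy111)* mutants the levels lay close together, at 11.2 ± 1.78 for *pals-24*, 10.7 ± 0.756 for *pals-22*, 8.30 ± 2.22 for *pals-23* and 5.82 ± 0.794 CPM per kb for *pals-25*, and all neighbours in this order overlapped. In the double mutants *pals-24* (11.7 ± 6.82) and *pals-23* (11.4 ± 5.94) exceeded each other in 2 of 4 libraries each, *pals-22* followed with 7.13 ± 0.843 and *pals-25* with 2.98 ± 0.443 CPM per kb. Among the genes with a count in the genotype, 45.9% had a lower mean level per length than *pals-25* in WT animals, and 64.8% in *pals-22(jy3)* mutants. The lengths in the table equal the annotated exon length for *pals-22* (893 bases) and *pals-25* (1073 bases) and are shorter for *pals-23* (1162 against 1488 annotated bases) and *pals-24* (906 against 1012), so the order between the pairs depends on the length used.

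The comparison of *pals-22(jy3)* mutants with WT animals asks what the loss of the repressor does to the locus that encodes it. All 4 genes were higher in the mutants. The quasi-likelihood test of edgeR, adjusted by Benjamini-Hochberg over the 14803 genes tested, gave *pals-22* a log2 fold change of 2.22 ± 0.16 (SE) with an adjusted p of 3.41e-05. It was 1.75 (SE 0.15, adjusted p = 8.69e-05) for *pals-25*, 1.60 (SE 0.25, adjusted p = 0.00265) for *pals-24* and 1.59 (SE 0.24, adjusted p = 0.00205) for *pals-23*. Across all genes tested, 21.3% were called in either direction in this comparison, 9.97% higher and 11.3% lower. The groups did not overlap for any of the 4 genes, and the share of all genes without overlap was not counted. With the study's further threshold of a log2 fold change beyond 2, which 3.1% of genes passed upwards, *pals-22* alone was called. The median log2 fold change of the 4 genes was 1.68, against -0.09 for all genes tested. The summed adult-stage markers were also higher in *pals-22(jy3)* mutants, at 1553 to 3111 CPM, against 613 to 988 CPM in WT animals, and the part of stage in the changes at the locus was not tested. Within the *pals-22(jy3)* group, the marker sums had the same order as the *pals-24* levels. Replicate 2 had the highest sum (3111 CPM) and also the highest *pals-23* level. In double-mutant replicates 1 to 3 the sums (410, 837 and 622 CPM) had the order of the *pals-23* and *pals-24* levels. Double-mutant replicate 4 had the lowest sum (42.4 CPM) and the highest levels of both genes. Its epidermis (1484 CPM) and L4 and molt (475 CPM) marker sums also lay outside those of the other double-mutant libraries.

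The *pals-25(jy111)* mutants, in which *pals-22* is intact, were compared with WT animals to see what the truncated PALS-25 does on its own. Here the downstream pair rose and the upstream pair did not pass the test. On the log2 scale *pals-25* was higher by 1.26 (SE 0.15, adjusted p = 0.00214) and *pals-22* by 1.17 (SE 0.14, adjusted p = 0.00269), over 14671 genes tested by edgeR, of which 3.74% were called in either direction, 2.33% higher and 1.41% lower. For *pals-23* the value was 0.29 (SE 0.25, adjusted p = 0.701) and for *pals-24* 0.21 (SE 0.16, adjusted p = 0.655), with groups that overlapped. Same-numbered libraries of these genotypes were taken as paired. *pals-23* was above WT in every such pair, and *pals-24* in all but replicate 4. In edgeR with the replicate number as a block, *pals-23* was at 0.30 (SE 0.10, adjusted p = 0.103) and *pals-24* at 0.21 (SE 0.10, adjusted p = 0.267), neither called. The *pals-25* message, which carries the premature stop codon in these animals, was thus 2.40-fold higher than in WT. The summed adult-stage markers were 517 to 830 CPM in *pals-25(jy111)* mutants and 613 to 988 CPM in WT animals, and the growth time was the same.

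In the double mutants, which carry *jy3* as well as the *jy9* change in *pals-25*, none of the 4 genes passed the test against WT, where 8.68% of the 14551 genes tested were called in either direction and 2.61% higher. At an unadjusted p under 0.05 in edgeR, 1 of the 4, *pals-22*, passed. The share of all genes that passed at this level was not counted, so this count is a description. Among the 14551 genes tested, ordered by strength of evidence in edgeR, *pals-22* had rank 1983. Its log2 fold change was 0.54 (SE 0.16, adjusted p = 0.0755), and every double-mutant library was above every WT library. DESeq2 called this gene at the same size (0.54, adjusted p = 0.0173), as did edgeR with all 16 libraries fitted together (0.58, adjusted p = 0.0158), while limma-voom called 0 of the 4. The share of all genes called in these alternative fits was not counted. The other values were 0.25 (SE 0.17, adjusted p = 0.367) for *pals-25*, 0.70 (SE 0.40, adjusted p = 0.289) for *pals-23* and 0.22 (SE 0.38, adjusted p = 0.755) for *pals-24*. Without double-mutant replicate 4 the value of *pals-23* was 0.35 and that of *pals-24* was -0.24, and neither was called. The summed body wall muscle markers were 7741 to 9829 CPM in the double mutants and 6560 to 7341 CPM in WT animals, without overlap.

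Set against the double mutants, the *pals-22(jy3)* single mutants differ in having intact *pals-25*, while *pals-22* is mutated in both genotypes. They also differ in growth time, 48 h against 44 h, which cannot be told apart from the genotype. The downstream pair was higher in the single mutants, *pals-22* by 1.68 (SE 0.14, adjusted p = 0.000119) and *pals-25* by 1.49 (SE 0.16, adjusted p = 0.000501) on the log2 scale. Of the 14878 genes tested by edgeR, 22.4% were called in either direction and 11.3% higher. The upstream pair did not pass, at 1.37 (SE 0.43, adjusted p = 0.0546) for *pals-24* and 0.89 (SE 0.38, adjusted p = 0.130) for *pals-23*. These outcomes depended on the fit and on single libraries. Without double-mutant replicate 4, *pals-24* was called at 1.81 (adjusted p = 0.0140) and *pals-23* at 1.22 (adjusted p = 0.0457). The call for *pals-24* also appeared without *pals-22(jy3)* replicate 1 (1.63, adjusted p = 0.0270), and with DESeq2 (1.46, adjusted p = 0.00588) and limma-voom (1.51, adjusted p = 0.0401). Both genes of the upstream pair were also called in edgeR with the replicate number as a block, although these genotypes were not taken as paired. The summed adult-stage markers were 1553 to 3111 CPM in *pals-22(jy3)* mutants and 42.4 to 837 CPM in the double mutants, and their part was not tested.

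Of the activated genotypes, *pals-22(jy3)* mutants had the higher levels of all 4 genes, and 3 of the differences passed the test. Over *pals-25(jy111)* mutants, *pals-24* was higher by 1.41 (SE 0.26, adjusted p = 0.00998), *pals-23* by 1.31 (SE 0.24, adjusted p = 0.00931) and *pals-22* by 1.07 (SE 0.13, adjusted p = 0.00123) on the log2 scale. For *pals-25* the value was 0.50 (SE 0.16, adjusted p = 0.0779), although the groups did not overlap. In this comparison 13.6% of the 14847 genes tested by edgeR were called in either direction and 7.47% higher. Libraries with the same replicate number deviated together in these genotypes, and with the replicate number as a block *pals-25* was called at 0.51 (SE 0.11, adjusted p = 0.00848), so that all 4 genes were then higher in *pals-22(jy3)* mutants. DESeq2 (0.55, adjusted p = 0.00575) and the fit without *pals-22(jy3)* replicate 1 (0.59, adjusted p = 0.0474) called it too. The summed adult-stage markers were 1553 to 3111 CPM in *pals-22(jy3)* mutants and 517 to 830 CPM in *pals-25(jy111)* mutants, without overlap, and the growth times differed. The part of stage was not tested.

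Between *pals-25(jy111)* mutants and the double mutants, *pals-25* differed by 1.00 (SE 0.17, adjusted p = 0.0195) and *pals-22* by 0.62 (SE 0.13, adjusted p = 0.0417) on the log2 scale, both higher in *pals-25(jy111)* mutants. By edgeR, 3.65% of 14743 genes tested were called in either direction and 2.71% higher. For *pals-23* the value was -0.42 (SE 0.40, adjusted p = 0.656) and for *pals-24* it was -0.03 (SE 0.39, adjusted p = 0.983). Without double-mutant replicate 4 these values were -0.06 and 0.44, and neither was called. The calls of the downstream pair were near the threshold. That of *pals-22* was lost without any 1 of double-mutant replicates 1, 2 and 3 or *pals-25(jy111)* replicates 2, 3 and 4 (0.57 to 0.64, adjusted p 0.0617 to 0.142). That of *pals-25* was lost without any 1 of double-mutant replicates 1, 2 and 3 or *pals-25(jy111)* replicate 2 (0.93 to 1.03, adjusted p 0.0520 to 0.0683). In each of these fits the direction was kept. The summed body wall muscle markers were 6208 to 7498 CPM in *pals-25(jy111)* mutants and 7741 to 9829 CPM in the double mutants, without overlap, and their part was not tested.

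**Figure D2:**
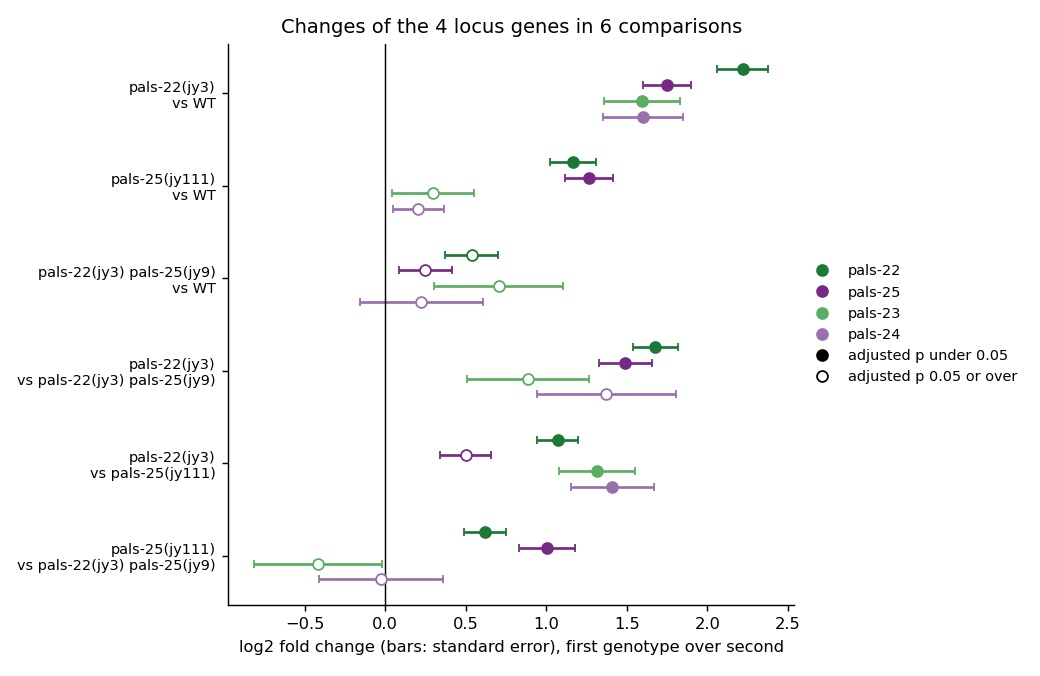
Log2 fold change of each locus gene (horizontal axis, bars are standard errors from edgeR) in the 6 comparisons, named first genotype over second, with filled points for an adjusted p under 0.05. The 4 genes lie together at 1.59 to 2.22 in *pals-22(jy3)* mutants over WT, and in *pals-25(jy111)* mutants over WT the downstream pair (1.17 and 1.26) is apart from the upstream pair (0.21 and 0.29).

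Since *pals-22* and *pals-25* are described as an operon, the balance between them was measured within each library, where scaling has no influence. The share of *pals-25* in the counts of both genes was 33.0%, 27.1%, 29.8% and 32.7% in *pals-22(jy3)* mutants, and 39.0%, 40.7%, 35.7% and 42.5% in *pals-25(jy111)* mutants. It was 33.6%, 37.0%, 28.9% and 34.02% in the double mutants and 38.6%, 35.1%, 39.0% and 39.9% in WT animals. Both genotypes with the *jy3* splice allele in *pals-22* thus had the lower means, 30.7 ± 2.79% in *pals-22(jy3)* mutants and 33.4 ± 3.35% in the double mutants, against 39.5 ± 2.88% in *pals-25(jy111)* mutants and 38.1 ± 2.09% in WT animals (SD, n = 4 each). The *pals-22(jy3)* libraries were all below those of WT, with a mean difference of -7.47 percentage points, and below those of *pals-25(jy111)*, with a mean difference of -8.80 points. For each of these differences the two-sided exact permutation test gave p = 0.0286, the smallest that 4 against 4 libraries allow, and 0.0857 after adjustment over the 6 comparisons. No share difference passed after adjustment. The share in *pals-25(jy111)* mutants was 1.33 points above that in WT (exact permutation p = 0.457). The counting interval of a single library was wide at this depth, for example 28.4% to 49.6% for the 88 counts of both genes in WT replicate 1.

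The same measure was taken for the upstream pair. The share of *pals-24* in the counts of *pals-23* and *pals-24* was 47.5%, 56.2%, 53.97% and 51.3% in *pals-22(jy3)* mutants, and 54.9%, 53.4%, 55.2% and 43.5% in *pals-25(jy111)* mutants. It was 46.8%, 41.5%, 41.9% and 47.0% in the double mutants and 58.8%, 50.8%, 54.02% and 50.3% in WT animals. The double mutants were below WT, with a mean difference of -9.16 points, and below *pals-22(jy3)* mutants, by 7.91 points, without overlap in either case. The exact permutation test gave p = 0.0286 and an adjusted p of 0.0857 for both. Without double-mutant replicate 4 the differences were -10.1 points from WT and 8.81 points between *pals-22(jy3)* and the double mutants (exact permutation, adjusted p = 0.171 for both). Although the levels of *pals-23* and *pals-24* in the double mutants covered a 3.65-fold and a 3.68-fold range between libraries, the share of *pals-24* stayed between 41.5% and 47.0%.

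**Figure D3:**
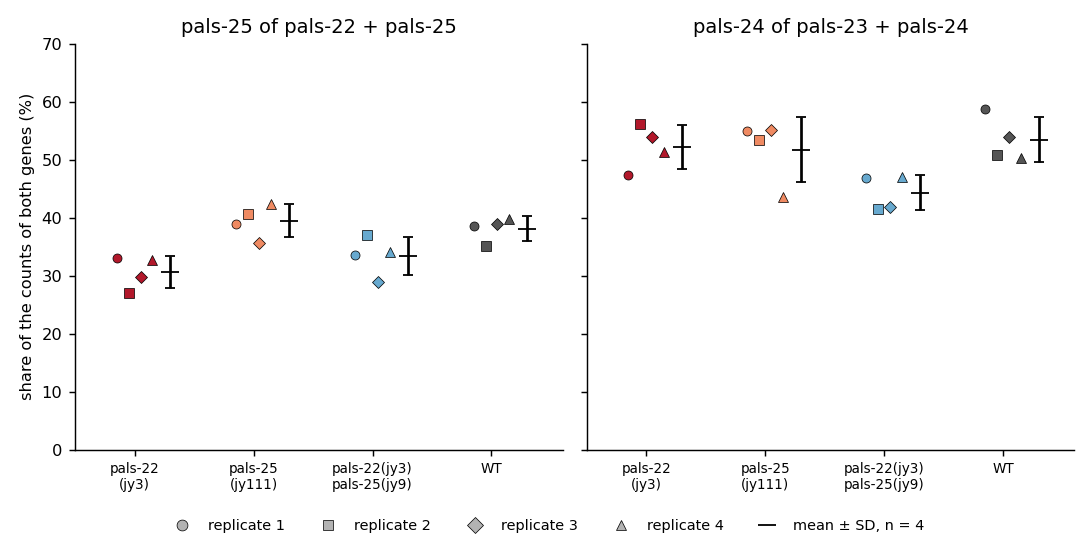
Share of *pals-25* in the counts of *pals-22* and *pals-25* (left) and of *pals-24* in the counts of *pals-23* and *pals-24* (right), in percent, for each library by genotype, with the mean ± SD of 4 libraries. On the left the *pals-22(jy3)* libraries (27.1% to 33.0%) lie below those of *pals-25(jy111)* mutants and WT, and on the right the double mutants (41.5% to 47.0%) lie below those of *pals-22(jy3)* mutants and WT.

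A share of the downstream pair in the counts of all 4 genes was added after the values of the genes had been seen, and is given as a description with no test. It was 46.6%, 40.8%, 47.7% and 43.4% in *pals-25(jy111)* mutants, against 32.0%, 28.8%, 33.7% and 23.4% in WT animals, a difference of 15.1 points without overlap. The *pals-22(jy3)* libraries had 40.9%, 30.4%, 35.9% and 39.8%, a mean 7.27 points above WT, and in the double mutants it was 44.2%, 24.8%, 36.4% and 21.6%, a mean 2.24 points above WT, or 5.63 points without replicate 4.

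Among the 38 *pals* genes, the 4 locus genes had high basal levels and small responses. By level per length in WT animals they had the ranks 3 (*pals-24*), 5 (*pals-23*), 6 (*pals-22*) and 8 (*pals-25*). The other genes among the first 8 were *pals-16*, *pals-17*, *pals-18* and *pals-19*, which are named here because of these ranks, and 3 *pals* genes had no count in WT. Over WT, 32 of the 34 other *pals* genes could be tested by edgeR in *pals-22(jy3)* mutants, and all 32 were higher. Their median log2 fold change was 8.95, against -0.09 for all genes tested. Genes with few or no counts in WT could pass the filter on low counts only through the *pals-22(jy3)* libraries, where they are high. For them a higher value was fixed by the filter, so the count is a description. Of the 32, 3 had no count in WT, and with these set to a bound of 3 counts over the group the median was 8.63. Among the 36 *pals* genes tested in this comparison, the locus genes ranked 28 (*pals-22*), 29 (*pals-25*), 30 (*pals-24*) and 31 (*pals-23*) by log2 fold change.

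The ends of the family in this comparison were far apart. The gene *pals-28* had 115 to 178 CPM in *pals-22(jy3)* mutants and no count in WT animals, which makes it at least 4504-fold higher by a floor of 3 counts over the group. On the same basis *pals-8* (47.8 to 72.9 CPM in *pals-22(jy3)* mutants) was at least 1860-fold higher. The third, *pals-11*, had 191 to 340 CPM in *pals-22(jy3)* mutants and 1 count in all WT libraries together. At the other end, *pals-18* rose by 0.58 (SE 0.12, adjusted p = 0.00821), *pals-19* by 0.86 (SE 0.12, adjusted p = 0.00139) and *pals-16* by 1.18 (SE 0.18, adjusted p = 0.00205) in *pals-22(jy3)* mutants. These 3 lie side by side elsewhere on chromosome III, and since the annotated *pals-18* (1403408 to 1406263) and *pals-19* (1401940 to 1403460) overlap on the same strand, reads may be shared between them.

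In *pals-25(jy111)* mutants over WT, 21 of 26 other *pals* genes tested were higher and 0 lower, with a median log2 fold change of 5.58, against 0.02 for all genes tested. Over the double mutants, 32 of 32 were higher in *pals-22(jy3)* mutants (median 9.44, against -0.09 for all genes, or 9.11 with 4 genes at their bound), and in *pals-22(jy3)* over *pals-25(jy111)* mutants 30 of 32 (median 2.54, against -0.07 for all genes). In *pals-25(jy111)* mutants over the double mutants, 21 of 25 were higher (median 6.20, against 0.0034 for all genes). Against WT, only 10 of the 34 others passed the filter on low counts in the double mutants, where all 4 locus genes did. The counts above thus include genes that passed the filter only through a genotype in which they are high, and are descriptions. Of the 10 others tested in the double mutants over WT, edgeR called 0 in either direction, against 8.68% of all genes tested, and limma-voom called 0. In edgeR 0 of the 10 had an unadjusted p under 0.05, and the share of all genes below it was not counted.

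**Figure D4:**
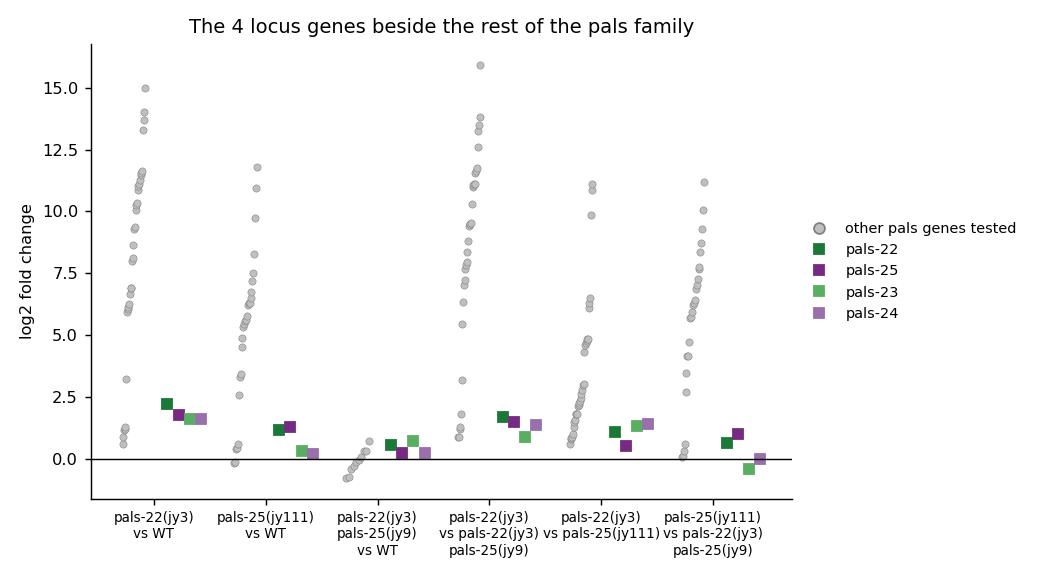
Log2 fold change (vertical axis) of every other *pals* gene tested (grey points) and of the 4 locus genes (coloured squares) in the 6 comparisons. For *pals-22(jy3)* mutants over WT the locus genes sit at 1.59 to 2.22, below the family median of 8.95, whose genes with no count in WT depend on the fit's prior count.

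None of the 4 genes is on the list of 80 IPR genes or the longer list of ORR genes that the study took from earlier work. Of 79 IPR genes tested in *pals-22(jy3)* mutants over WT, 75 were higher and 2 lower (median log2 fold change 8.74, against -0.09 for all genes tested, of which 9.97% were called higher and 11.3% lower), and 122 of 173 ORR genes tested were higher and 10 lower (median 5.92, or 5.40 with genes without a count in 1 genotype at their bound). In *pals-25(jy111)* mutants over WT, 49 of 66 IPR genes were higher and 0 lower (median 4.71, against 0.02 for all genes tested, of which 2.33% were called higher and 1.41% lower), and 107 of 166 ORR genes were higher and 4 lower (median 3.35), where the fit with the replicate block called 11 lower. The locus genes, at 1.59 to 2.22 and 0.21 to 1.26, were below these medians. The study describes IPR and ORR genes as generally belonging to the genes that *pals-22* and *pals-25* regulate. A rise of both lists was therefore largely built into their choice, and their counts and medians are descriptions. The gene *zip-1*, which encodes a bZIP transcription factor that acts in the IPR, was highest in *pals-22(jy3)* mutants and next in *pals-25(jy111)* mutants, as *pals-25* was, while the double mutants and WT overlapped. It had 139 ± 16.1 CPM in *pals-22(jy3)* mutants, 67.4 ± 2.67 CPM in *pals-25(jy111)* mutants, 22.4 ± 2.48 CPM in the double mutants and 23.2 ± 2.31 CPM in WT animals (SD, n = 4 each). Its log2 fold change over WT was 2.51 (SE 0.11, adjusted p = 2.27e-06) in *pals-22(jy3)* and 1.54 (SE 0.08, adjusted p = 9.07e-06) in *pals-25(jy111)* mutants.

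Of the 21 other annotated genes within 25 kb of the locus, 6 could be tested against WT in *pals-22(jy3)* mutants, and 3 were called, where 21.3% of all genes tested were. Of the 3 called, *zig-13* and *ver-1* passed the filter on low counts only through the *pals-22(jy3)* libraries, where they are high. For them a higher value was fixed by the filter. The count is therefore a description and cannot be weighed against the share of all genes. The gene *zig-13*, which encodes an immunoglobulin-domain protein, had 2.59 to 7.53 CPM in *pals-22(jy3)* mutants, 1.21 to 4.21 CPM in *pals-25(jy111)* mutants, 1 count in all double-mutant libraries together and 2 counts in all WT libraries together. Its neighbour *ver-1*, which encodes a receptor tyrosine kinase, had 4.69 ± 0.991 CPM in *pals-22(jy3)* mutants and 2.48 ± 0.620 CPM in *pals-25(jy111)* mutants, against 0.172 ± 0.155 CPM in the double mutants and 0.259 ± 0.0771 CPM in WT animals. Both passed the test in *pals-22(jy3)* and in *pals-25(jy111)* mutants over WT, in each case admitted by the filter only through the mutant libraries. The third, *sqst-5*, fell by 1.06 on the log2 scale in *pals-22(jy3)* mutants over WT (SE 0.21, adjusted p = 0.00877) and was at -0.21 (adjusted p = 0.691) in *pals-25(jy111)* mutants. C29F9.2, between the tandem pairs, was at 0.06 in *pals-22(jy3)* and -0.32 in *pals-25(jy111)* mutants over WT and was not called in either. It is named for its position. In the double mutants C29F9.2 was lower than in WT (-0.99, SE 0.19, adjusted p = 0.0233), and *pals-22(jy3)* mutants were above the double mutants (1.03, SE 0.22, adjusted p = 0.0129). Of 4 such genes tested in the double mutants over WT, the other called was C29F9.6 (1.05, SE 0.23, adjusted p = 0.0346), where 8.68% of all genes were called.

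Likeness of pattern was measured as the root mean square difference over the 16 libraries between log2(CPM + 0.5) values centred on each gene's own mean, among 13736 genes with a mean of at least 1 CPM. This measure is a description, and genes that share libraries share their depth and stage. The nearest to *pals-25* was *rde-1* (0.144), which encodes the Argonaute protein of the RNA interference pathway, followed by *skr-3* (0.207), a Skp1-related gene, and *rike-1* (0.208). The nearest to *pals-22* were C49C8.8 (0.208), *skr-3* (0.219) and *rde-1* (0.233). On this measure *pals-25* had rank 10 for *pals-22* and *pals-22* had rank 12 for *pals-25* (0.271). The nearest to *pals-23* were *irg-1* (0.246), an infection response gene, E02C12.8 (0.257) and the F-box gene *fbxa-79* (0.270). For *pals-24* they were the nuclear receptor gene *nhr-115* (0.251), M04C3.1 (0.254) and *cbp-3* (0.269). The upstream genes had rank 4 for each other (0.281), and between the pairs the differences were larger, 0.489 to 0.567. The nearest genes depended on the pseudocount. With 0.1 in place of 0.5 they were *skr-3* for *pals-22*, E02C12.8 for *pals-23*, *nhr-115* for *pals-24* and *rde-1* for *pals-25*, and with 2 they were *skr-3*, *irg-1*, M04C3.1 and *fbxa-171* for the 4 genes in that order.

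The pattern of *rde-1* had the order of levels seen for *pals-25*, at a higher level. It had 155 ± 12.3 CPM in *pals-22(jy3)* mutants, 88.3 ± 5.47 CPM in *pals-25(jy111)* mutants, 51.6 ± 3.21 CPM in the double mutants and 48.0 ± 0.941 CPM in WT animals (SD, n = 4 each). Its log2 fold change over WT was 1.62 (SE 0.07) in *pals-22(jy3)* mutants and 0.89 (SE 0.06) in *pals-25(jy111)* mutants, given without a test since the gene was chosen for its pattern. For *irg-1* the values were 12.5 ± 2.86 CPM in *pals-22(jy3)* mutants, 3.94 ± 1.93 CPM in *pals-25(jy111)* mutants, 4.78 ± 2.41 CPM in the double mutants and 2.71 ± 1.11 CPM in WT animals. Its log2 fold change over WT was 2.11 (SE 0.32) in *pals-22(jy3)* mutants and 0.52 (SE 0.41) in *pals-25(jy111)* mutants, likewise without a test.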

How the data were processed

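The authors aligned paired-end reads of poly(A)-selected, stranded libraries to WS235 using Rsubread, counted them per gene using featureCounts and deposited the raw counts. The submitters' processing notes also name limma. The sources used here give neither versions nor the strand setting nor the treatment of reads that match several genes. Counts of *pals* paralogs may share reads. The combined table and the 16 files of single libraries hold identical counts. In the table, 0 entries name no gene, and 44017 of 46904 gene IDs matched a table of symbols. Positions come from the Ensembl 115 annotation of WBcel235, the assembly of WS235.

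The 4 locus genes and all gene lists were chosen with earlier results of these data known. For each of 6 pairs of genotypes, its 8 libraries were fitted with edgeR 4.0.16 in R 4.3.3 (TMM scaling, quasi-likelihood test, Benjamini-Hochberg adjustment over all genes tested), on genes that reached 0.5 CPM (by library total) in 4 or more of these libraries. Calls need an adjusted p under 0.05, and a log2 fold change beyond 2, the study's threshold, was counted separately. The standard error is the absolute log2 fold change over the root of F. CPM values were scaled by library totals and TMM factors over 16 libraries. Comparisons that share a genotype share its libraries. Shares within a library were compared by two-sided exact permutation tests, adjusted over the 6 pairs. Replicates of a genotype all differed beyond sampling noise (chi-square per gene at least 11.5), so each library counted as 1 replicate.

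Beyond the 4 genes, the text names for each the 3 genes of most similar pattern, the 3 largest and 3 smallest changes among other *pals* genes in *pals-22(jy3)* mutants over WT, genes within 25 kb that were called over WT in either single mutant (at most 6), and *zip-1*. Any other gene was named after its values were seen. The alternatives were DESeq2 1.42.0, limma-voom (limma 3.58.1), DESeq2's size factors in edgeR, other filters, 1 fit over 16 libraries, a replicate block, a log2 threshold of 1 and leaving out each library. Replicate numbers 1 to 4 recur in each genotype and nothing in the labels says what they share. Deviations of same-numbered libraries from their genotype means correlated above 0.1 across genes in all 4 pairs of libraries for *pals-22(jy3)* with WT, *pals-25(jy111)* with WT, *pals-25(jy111)* with *pals-22(jy3)*, and *pals-25(jy111)* with the double mutants, which were taken as paired. For number 4 the correlation with the double mutants was 0.113 in *pals-25(jy111)* and 0.0739 in *pals-22(jy3)* mutants, so this split rests on a small difference. The edgeR fit was tested before use on simulated data for 14671 genes of the comparison of *pals-25(jy111)* mutants to WT.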

Additional observations from a re-analysis of the deposited data

Results flagged for a closer look

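In 28 groups of 4 libraries (levels of the 4 genes and 3 kinds of share, in each genotype), a library that lies far from the other 3 relative to the range of its group was looked for, and 2 were found. Chance alone flags about 1 in 20 such groups. The level of *pals-25* in *pals-22(jy3)* replicate 4 was 11.1 CPM, against 8.48 to 8.74 CPM in the other *pals-22(jy3)* libraries. The share of *pals-24* in the counts of *pals-23* and *pals-24* was 43.5% in *pals-25(jy111)* replicate 4, against 53.4% to 55.2% in the other *pals-25(jy111)* libraries. The level of *pals-23* was 12.7 CPM in that replicate, the highest of the genotype.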

How the results depend on the processing

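Of 654 alternative values for the locus genes, their counts of calls and their shares, 599 were scored as unchanged. For fold changes and tested shares this means the same direction and side of the threshold. For counts of calls it means equal or within 1.5 times, and for summed shares the same direction and a move under 1 SD. Shares scored by the exact sign-flip permutation test could only come out as unchanged. That test cannot pass with 4 pairs, and no share difference had passed the main test. The tally also holds the downstream pair's share of all 4 genes, which was added after the values were seen. The count of 599 is therefore a description. Of 96 list counts, 89 stayed within 1.5 times. The calls over WT in both single mutants held under every alternative run. In the double mutants over WT, *pals-22* was called by DESeq2 (0.54) and with 16 libraries in 1 fit (0.58), so that 1 of the 4 genes was called. In *pals-22(jy3)* over the double mutants, *pals-24* was called by DESeq2 (1.46), limma-voom (1.51), edgeR with DESeq2 size factors (1.46) and with 16 libraries in 1 fit (1.41). In *pals-22(jy3)* over *pals-25(jy111)* mutants, *pals-25* was called by DESeq2 (0.55), with the replicate block (0.51) and with 16 libraries in 1 fit (0.56). In *pals-25(jy111)* over the double mutants, *pals-22* was lost with no filter on low counts (0.63, 1 of 4 called), 1 of 4 passed a log2 threshold of 1, and *pals-24* turned positive with limma-voom (0.15) and the replicate block (0.14). The share of *pals-24* in *pals-22(jy3)* mutants turned from below to above that in WT when counts were summed over libraries (0.54 points). The share of all genes called was counted for the main fits only, so counts of calls under the alternatives have no such share beside them. The cause of these shifts was not tested.

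Same-numbered libraries of *pals-22(jy3)* or WT and the double mutants were not taken as paired (for number 4 the correlation of deviations was 0.0739 and -0.154). With the replicate number as a block, 4 genes were called in *pals-22(jy3)* over the double mutants (*pals-23* at 1.03, *pals-24* at 1.49). The share of all genes called with the block was not counted. Apart from these and *pals-25* in *pals-22(jy3)* over *pals-25(jy111)* mutants, the block changed no call of the 4 genes, and no share passed the exact sign-flip permutation test, where 4 pairs cannot go below p = 0.125.

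Leaving out each library in turn, the values ranged as follows, and the share of all genes called was not counted in these fits. In the double mutants over WT, *pals-24* was at -0.24 to 0.46. In *pals-22(jy3)* over the double mutants, *pals-23* was at 0.63 to 1.22, *pals-24* at 1.14 to 1.81, and 2 to 4 genes were called. In *pals-22(jy3)* over *pals-25(jy111)* mutants, *pals-25* was at 0.42 to 0.60. In *pals-25(jy111)* over the double mutants, *pals-22* was at 0.57 to 0.71, *pals-24* at -0.24 to 0.44, *pals-25* at 0.93 to 1.11, and 0 to 2 genes were called. The *pals-24* share differed by -2.58 to 0.52 points in *pals-22(jy3)* mutants from WT, by -2.86 to 1.02 in *pals-25(jy111)* mutants from WT and by -2.28 to 2.06 in *pals-22(jy3)* from *pals-25(jy111)* mutants. The downstream pair's share of all 4 genes differed by -1.90 to 5.63 points in the double mutants from WT.

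Depth limits *pals-25* most, which had 34 to 73 counts in a WT library.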
